A study of Mus musculus with 15 samples.

Results

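The lysosomal gene set described here holds 39 mouse genes, found by symbol among the 56979 gene identifiers of the deposited table. It consists of 15 hydrolases, 5 membrane proteins (Lamp1, Lamp2, Scarb2, Npc1 and Mcoln1), 2 soluble lipid carriers (Npc2 and Psap), 2 transcription factors (Tfeb and Tfe3) and 15 genes of the proton pump. Each symbol matched 1 identifier. RNA sequencing of polyadenylated RNA covered 5 groups of 3 libraries each, all from wild type mouse bone marrow cells. Among bone marrow-derived macrophages (BMDM, 9 libraries), the LPS_NZM group had received LPS and NZM, the LPS group LPS, and the Control group vehicle. Among cells labelled BMSC (6 libraries), the Aged_NZM group carried the treatment label H2HO+NZM and the Aged group the label H2HO. By the design text, NZM followed a pretreatment with a model drug. LPS, a lipid-linked sugar chain on Gram-negative bacteria, activates macrophages, while the labels explain neither NZM, H2HO nor BMSC and give no dose, time or age. BMSC without H2HO were not analysed here, so "Aged" is used only as the group's name.

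Lysosomes break down proteins, lipids, sugars and nucleic acids that reach them by endocytosis, phagocytosis and autophagy. Their hydrolases work best at acidic pH, which the vacuolar proton pump (V-ATPase) sets up. The pump has a membrane sector, V0, that conducts protons and a cytosolic sector, V1, that hydrolyses ATP. TFEB and TFE3, members of the MiT family of transcription factors, enter the nucleus when nutrient signalling at the lysosome falls and bind a motif built on the letters CACGTG in many lysosomal promoters. Macrophages are rich in lysosomes because they degrade engulfed material.

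Promoter sequences of 32 of the 39 genes were present in a RefSeq table (build GRCm38.p6), each spanning 250 bases before to 50 after the start site. The letters CACGTG, which read the same on both strands, occurred in promoters of 12 of these 32 genes (37.5%), against 8.09% of all 27025 genes in that table. The longer palindrome TCACGTGA, which contains CACGTG, occurred in 7 of the 32 (21.9%), against 1.12% of all genes in that table. The 7 stretches below show the match in membrane proteins, hydrolases and pump subunits, read 5′ to 3′ on the gene's strand with every CACGTG in capitals. They lie upstream of the start site of Lamp1 (chr8:13159080-13159160, plus strand), Mcoln1 (chr8:3500428-3500499, plus strand), Glb1 (chr9:114401010-114401055, plus strand) and Ctsd (chr7:142387899-142387946, minus strand). Those of Gla (chrX:134601174-134601252), Atp6v0b (chr4:117887330-117887385) and Atp6v1a (chr16:44139365-44139410) are all on the minus strand. Lamp1 held 4 matches within 81 bases, and Mcoln1, Gla and Atp6v0b held 2 each in the stretch shown. A match is a description of the letters and shows no binding.
Lamp1: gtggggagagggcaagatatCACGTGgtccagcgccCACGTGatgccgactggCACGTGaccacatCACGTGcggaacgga
Mcoln1: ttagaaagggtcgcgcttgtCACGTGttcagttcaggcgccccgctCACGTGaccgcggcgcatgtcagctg
Glb1: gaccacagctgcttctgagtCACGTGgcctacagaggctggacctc
Ctsd: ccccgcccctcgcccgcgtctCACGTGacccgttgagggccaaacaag
Gla: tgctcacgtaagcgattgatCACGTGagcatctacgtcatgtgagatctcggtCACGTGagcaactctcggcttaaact
Atp6v0b: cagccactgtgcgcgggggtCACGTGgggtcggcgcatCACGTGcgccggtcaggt
Atp6v1a: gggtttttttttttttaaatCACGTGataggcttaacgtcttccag

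Values were in TPM (transcripts scaled to a fixed library total), which are corrected for transcript length, so that genes can be compared with each other, but keep no read depth. Each library had between 21360 and 23398 genes above 0. The labels do not say that the replicates came from separate cultures or animals, so p-values reflect only how far these libraries scatter, and that scatter may be technical. All 10 macrophage markers were present in BMDM, with summed levels of 24730 to 25180 TPM in LPS_NZM, 24050 to 24200 TPM in LPS and 29300 to 31620 TPM in Control. In BMSC the same markers summed to between 94.94 and 106.3 TPM, and Adgre1, Itgam, Fcgr1, Cx3cr1, C1qa and C1qb averaged under 1 TPM in both groups. Stromal markers were present in both cell kinds, at 2316 to 2409 TPM in LPS_NZM, 2181 to 2372 TPM in LPS and 2687 to 2886 TPM in Control, and at 5522 to 5541 TPM in Aged_NZM and 2467 to 2551 TPM in Aged. Mast cell and basophil markers differed within a group, with sums between 14.01 and 522.2 TPM in the Control libraries. Neutrophil markers summed to between 1612 and 2516 TPM in the BMDM libraries and to between 8.78 and 25.21 TPM in BMSC. In these bulk samples, fewer cells of a type and less RNA per cell cannot be told apart.

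Together the 39 genes made up a large share of the macrophage transcriptome. Their summed level was 32300 ± 270.7 TPM in LPS_NZM, 24200 ± 165.0 TPM in LPS and 34950 ± 407.7 TPM in Control (SD, n = 3 each), of 1000000 TPM in a library. It was 8927 ± 101.5 TPM in Aged_NZM and 9724 ± 147.5 TPM in Aged. In Control BMDM the most abundant genes were Ctsd at 7237 TPM, an aspartic protease, Psap at 6458 TPM, the precursor of the saposins that present lipids to hydrolases, and the cysteine proteases Ctsb at 4081 TPM and Ctss at 3791 TPM. In LPS BMDM Ctsc, which averaged 2466 TPM, joined the leading genes and held 10.2% of the set's level. In BMSC the order differed, with Psap, Ctsb, Ctsd, Lamp1, Lamp2 and Atp6v0c as the 6 most abundant genes of both groups.

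**Figure D1:**
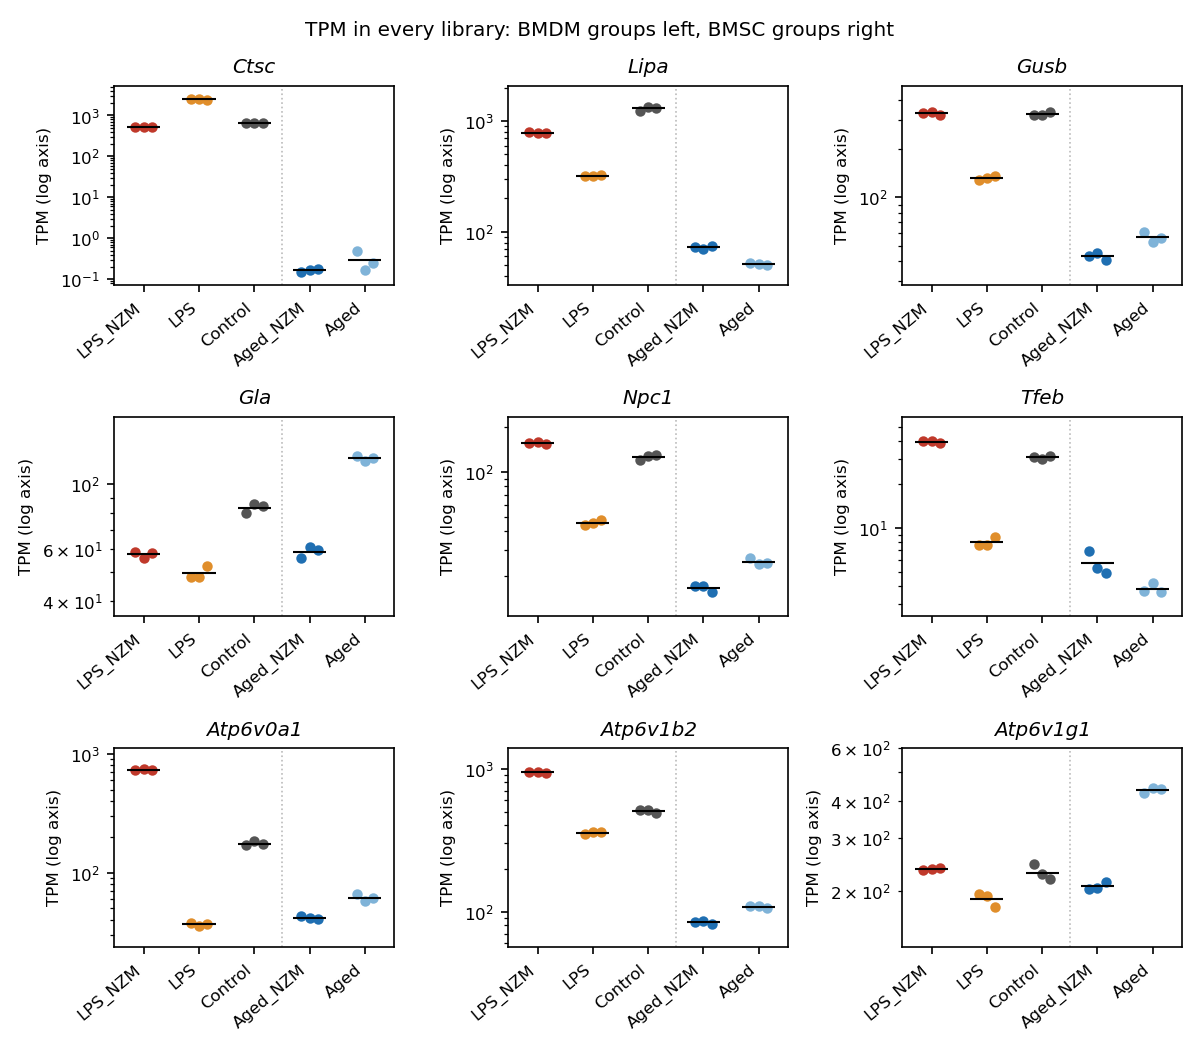
TPM on a log axis of 9 genes in each library (points) with the group mean (bar), BMDM groups on the left of the dotted line and BMSC groups on the right. Atp6v0a1 sits between 734.1 and 738.1 TPM in the LPS_NZM libraries, against 35.6 to 37.8 TPM in LPS, while Ctsc is highest in LPS and near 0 in BMSC.

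LPS against Control asked what macrophage activation did to these genes. Among the 15 hydrolases, 13 were lower and 2 higher in LPS than in Control, and after centring of each library 10 were lower and 4 higher, with Ctsh and Ctss among the higher. Ctsc had the largest rise of the 39 genes and Atp6v0a1 the largest fall. Over the whole set 31 genes were lower and 6 higher at an adjusted p under 0.05 (limma over 14486 tested genes). The background was 65.6% of all tested genes lower and 15.2% higher, and the LPS libraries lay lower as a whole, with a median change of -0.48 on the log2(TPM + 1) scale over all tested genes and -0.50 over the 39. After each library was centred on the median of its tested genes, 16 of the 39 were lower and 18 higher, against 29.1% and 36.5% of all tested genes. The same direction on both scales held for 16 lower and 6 higher genes, and 10 genes were called in opposite directions. A gene is therefore said to rise or fall below only where both scales called it in that direction, and the centred value follows the deposited one. The share of all tested genes called the same way on both scales was not computed. Counts of genes on both scales, here and below, therefore have no background beside them. On the log2(TPM + 1) scale the change of low genes is understated.

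On both scales 10 of the hydrolases were lower and Ctsc and Ctsz higher in LPS against Control. Lipa, the acid lipase that frees cholesterol and fatty acids from lipoproteins, had 795.1, 781.7 and 786.4 TPM in LPS_NZM, 317.7, 319.6 and 323.8 TPM in LPS, and 1239, 1354 and 1327 TPM in Control. The 3 groups did not overlap, and LPS_NZM lay between LPS and Control. Lipa fell by 2.02 ± 0.032 in LPS against Control (log2 change ± SE, adjusted p = 8.69e-12) and by 1.48 after centring. It rose by 1.29 ± 0.032 in LPS_NZM against LPS (adjusted p = 1.79e-10) and by 0.83 after centring. Gusb, a glucuronidase, had 334.1, 339.8 and 322.6 TPM in LPS_NZM, 127.8, 132.3 and 135.3 TPM in LPS, and 323.1, 324.9 and 337.8 TPM in Control. Its LPS_NZM and Control values overlapped, with LPS well below both. Gusb fell by 1.31 ± 0.033 in LPS against Control (adjusted p = 1.79e-10; 0.77 after centring) and rose by 1.33 ± 0.033 in LPS_NZM against LPS (adjusted p = 1.67e-10; 0.86 after centring).

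Hexa, which trims gangliosides, averaged 610.0 ± 8.72 TPM in LPS_NZM, 314.4 ± 1.98 TPM in LPS and 626.7 ± 15.7 TPM in Control. Hexa rose by 0.95 ± 0.025 in LPS_NZM against LPS (adjusted p = 2.77e-10; 0.49 after centring). The protective protein Ctsa rose there too, by 0.72 ± 0.029 (adjusted p = 6.46e-09; 0.25 after centring), at 431.8 ± 6.24 TPM in LPS_NZM and 262.6 ± 6.59 TPM in LPS. Gaa and Glb1 were 0.52 and 0.53 higher in LPS_NZM than in LPS as deposited, but did not pass after centring, at 0.06 and 0.07. For Ctsh and Ctss the direction turned, with changes of 0.14 and 0.36 as deposited and -0.32 and -0.11 after centring, and likewise for Gla (0.21 and -0.25) and Neu1 (0.33 and -0.13).

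The cathepsins did not move as 1 block. Ctsl, a cysteine protease, had 522.0, 519.2 and 517.0 TPM in LPS_NZM, 317.0, 303.1 and 300.9 TPM in LPS, and 1128, 976.5 and 1047 TPM in Control. Ctsl fell by 1.77 ± 0.046 in LPS against Control (adjusted p = 2.47e-10; 1.22 after centring). It stayed 1.01 ± 0.046 below Control in LPS_NZM (log2 change -1.01, adjusted p = 7.92e-08; -0.93 after centring), the lowest change of the set in that comparison. Ctsd had 5083, 5050 and 4917 TPM in LPS_NZM, 2766, 2777 and 2848 TPM in LPS, and 7221, 7159 and 7332 TPM in Control. Ctsd fell by 1.37 ± 0.022 in LPS against Control (adjusted p = 1.01e-11; 0.82 after centring) and rose by 0.84 ± 0.022 in LPS_NZM against LPS (adjusted p = 2.9e-10; 0.38 after centring). In GENCODE M21 (build GRCm38), exons of Ctsd overlap Gm49369, those of Ctsl the pseudogene Gm49230 and those of Glb1 Tmppe on the same strand, so these values are uncertain where reads were shared. Atp6v0b, Atp6v1e1, Atp6v1h, Ctsa, Ctsb, Ctsl, Ctsz, Hexa, Lamp1 and Npc1 overlap a gene on the opposite strand, and whether counting used strand is not given in the sources used here. Ctsb averaged 3370 ± 28.1 TPM in LPS_NZM, 2542 ± 56.5 TPM in LPS and 4081 ± 167 TPM in Control. Its difference of LPS_NZM from LPS was 0.41 as deposited but -0.06 after centring (adjusted p = 0.206), so that no direction holds on both scales.

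Ctsc went the other way. This dipeptidyl peptidase, which activates the serine proteases of granules, had 525.0, 533.3 and 529.3 TPM in LPS_NZM, 2479, 2467 and 2451 TPM in LPS, and 637.4, 646.2 and 657.7 TPM in Control. The LPS libraries stood 3.81-fold above Control by the ratio of means, and the LPS_NZM libraries lay below every Control library. Ctsc rose by 1.93 ± 0.021 in LPS against Control (adjusted p = 1.13e-12; 2.48 after centring) and fell by 2.22 ± 0.021 in LPS_NZM against LPS (adjusted p = 5.74e-13; 2.68 after centring). Neutrophils also express Ctsc. Of 10 neutrophil markers 4 were higher and 3 lower in LPS against Control, beside 15.2% and 65.6% of all tested genes. After centring 6 were higher and 3 lower, beside 36.5% and 29.1%. The markers summed to 2284 to 2516 TPM in LPS and 1612 to 1798 TPM in Control. In LPS_NZM against LPS, 5 of the 10 were higher and 3 lower, beside 60.4% and 16.9% of all tested genes. After centring 3 were higher and 4 lower, beside 29.8% and 35.3%. The sums were 2057 to 2462 TPM in LPS_NZM and 2284 to 2516 TPM in LPS. No neutrophil marker was at 0 in a whole BMDM group, and their part in the Ctsc result was not tested. Ctsz, a carboxypeptidase, was the other hydrolase to rise, with 1357, 1374 and 1289 TPM in LPS_NZM, 1269, 1270 and 1284 TPM in LPS, and 789.7, 774.4 and 775.1 TPM in Control. Ctsz rose by 0.71 ± 0.027 in LPS against Control (adjusted p = 3.86e-09; 1.25 after centring). In LPS_NZM against LPS its change was 0.07 as deposited, with an adjusted p of 0.0305 that was lost when single libraries were left out, and -0.39 after centring.

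Among the proteins that move cholesterol, Npc1 and Npc2 changed in opposite directions. Npc1, a membrane protein that passes cholesterol out of the lysosome, had 156.2, 159.7 and 154.5 TPM in LPS_NZM, 44.4, 45.3 and 47.7 TPM in LPS, and 119.4, 127.6 and 129.1 TPM in Control. Npc1 fell by 1.43 ± 0.040 in LPS against Control (adjusted p = 4.69e-10; 0.89 after centring) and rose by 1.75 ± 0.040 in LPS_NZM against LPS (adjusted p = 1.08e-10; 1.29 after centring). In LPS_NZM it was also above Control, by 0.32 ± 0.040 (adjusted p = 0.000128; 0.40 after centring). Npc2, its soluble partner, averaged 491.9 ± 10.5 TPM in LPS_NZM, 697.1 ± 6.30 TPM in LPS and 624.6 ± 3.99 TPM in Control. Npc2 rose by 0.16 ± 0.023 in LPS against Control (adjusted p = 0.000106; 0.70 after centring) and fell by 0.50 ± 0.023 in LPS_NZM against LPS (adjusted p = 1.61e-08; 0.97 after centring). Psap averaged 6079 TPM in LPS_NZM, 3830 TPM in LPS and 6458 TPM in Control, and fell by 0.75 ± 0.035 in LPS against Control (adjusted p = 2.03e-08; 0.21 after centring).

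The remaining membrane proteins had smaller differences than Npc1 in LPS against Control. Mcoln1, a calcium channel of the lysosomal membrane, had 39.3, 38.5 and 39.7 TPM in LPS_NZM, 24.6, 22.8 and 28.4 TPM in LPS, and 43.2, 43.6 and 43.7 TPM in Control. Mcoln1 fell by 0.77 ± 0.067 in LPS against Control (adjusted p = 2.29e-06; 0.22 after centring). Lamp1, a structural glycoprotein of the membrane, averaged 1622 ± 32.6 TPM in LPS_NZM, 1211 ± 19.8 TPM in LPS and 1576 ± 55.7 TPM in Control, and its LPS change of -0.38 turned to 0.17 after centring. Lamp2, its relative with a role in chaperone-mediated autophagy, averaged 389.4 ± 9.77 TPM in LPS_NZM, 457.9 ± 4.75 TPM in LPS and 482.0 ± 14.3 TPM in Control. Lamp2 fell by 0.23 ± 0.029 in LPS_NZM against LPS (adjusted p = 3.84e-05; 0.70 after centring). Scarb2, the receptor that carries glucocerebrosidase to the lysosome, had 62.0, 60.6 and 62.7 TPM in LPS_NZM and 87.6, 96.6 and 89.4 TPM in Control, and fell by 0.55 ± 0.042 between them (adjusted p = 3.6e-06; 0.47 after centring).

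The transcription factors parted as well. Tfeb had 39.8, 39.6 and 38.8 TPM in LPS_NZM, 7.59, 7.67 and 8.67 TPM in LPS, and 30.9, 30.1 and 31.6 TPM in Control. Tfeb fell by 1.83 ± 0.055 in LPS against Control (adjusted p = 7.87e-10; 1.28 after centring) and rose by 2.17 ± 0.055 in LPS_NZM against LPS (adjusted p = 2.19e-10; 1.71 after centring). In LPS_NZM it exceeded Control by 0.34 ± 0.055 (adjusted p = 0.000645; 0.43 after centring), with no overlap. Tfe3 had 113.5, 112.8 and 109.4 TPM in LPS_NZM, 124.6, 129.0 and 129.9 TPM in LPS, and 99.0, 107.7 and 107.8 TPM in Control. Tfe3 rose by 0.28 ± 0.039 in LPS against Control (adjusted p = 7.25e-05; 0.83 after centring) and fell by 0.19 ± 0.039 in LPS_NZM against LPS (adjusted p = 0.00132; 0.65 after centring). These are transcript levels, and where the proteins sit in the cell was not measured.

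LPS_NZM against LPS asked what NZM did after LPS. As deposited, 32 of the 39 genes were higher and 6 lower in LPS_NZM than in LPS, against 60.4% and 16.9% of all tested genes, and the median change was 0.41 over the 39 and 0.40 over all tested genes. After centring, 14 were higher and 17 lower, against 29.8% and 35.3%. The genes higher on both scales numbered 14, and those lower on both numbered 6, with no such share computed over all tested genes. Of the 15 hydrolases 14 were higher and 1 lower as deposited, and 6 were higher and 6 lower after centring. Of the 15 pump genes 13 were higher and 2 lower as deposited, and 5 were higher and 7 lower after centring. The 3 BMDM comparisons share libraries, so their changes are not independent of each other.

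Within BMDM the gene of the set that differed most was in the proton pump. Atp6v0a1, which encodes 1 form of the membrane subunit a that carries protons across, had 734.1, 738.1 and 734.9 TPM in LPS_NZM, 37.8, 35.6 and 36.8 TPM in LPS, and 169.8, 184.6 and 172.5 TPM in Control. LPS_NZM stood 20.02-fold above LPS and 4.19-fold above Control by the ratio of means. Atp6v0a1 fell by 2.23 ± 0.036 in LPS against Control (adjusted p = 1.02e-11; 1.68 after centring). It rose by 4.29 ± 0.036 in LPS_NZM against LPS (adjusted p = 4.13e-13; 3.82 after centring) and by 2.06 ± 0.036 in LPS_NZM against Control (adjusted p = 1.06e-10; 2.14 after centring).

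Among the V1 genes, Atp6v1b2, Atp6v1a and Atp6v1c1 rose in LPS_NZM against LPS on both scales, and Atp6v1e1, given below, fell on both. Atp6v1d, Atp6v1f, Atp6v1g1 and Atp6v1h were higher there as deposited (0.20, 0.30, 0.34 and 0.18) but lower after centring (-0.26, -0.16, -0.13 and -0.28). Atp6v1b2, the B subunit, had 947.9, 939.8 and 929.2 TPM in LPS_NZM, 349.3, 361.4 and 360.1 TPM in LPS, and 512.3, 516.2 and 491.0 TPM in Control. Atp6v1b2 rose by 1.39 ± 0.027 in LPS_NZM against LPS (adjusted p = 3.03e-11; 0.93 after centring) and by 0.89 ± 0.027 in LPS_NZM against Control (adjusted p = 4.14e-09; 0.97 after centring). Its LPS change of -0.50 came to 0.04 after centring (adjusted p = 0.223). Atp6v1a, the ATP-hydrolysing A subunit, had 321.3, 318.6 and 340.4 TPM in LPS_NZM, 178.0, 176.7 and 175.3 TPM in LPS, and 254.8, 276.8 and 272.1 TPM in Control. Atp6v1a rose by 0.88 ± 0.037 in LPS_NZM against LPS (adjusted p = 8.91e-09; 0.42 after centring). Atp6v1c1, the C subunit that helps hold both sectors together, had 162.6, 159.8 and 156.4 TPM in LPS_NZM, 96.0, 91.9 and 98.0 TPM in LPS, and 168.6, 177.9 and 172.7 TPM in Control. Atp6v1c1 fell by 0.85 ± 0.034 in LPS against Control (adjusted p = 6.39e-09; 0.31 after centring) and rose by 0.74 ± 0.034 in LPS_NZM against LPS (adjusted p = 1.8e-08; 0.27 after centring).

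Atp6v1e1 and Atp6v0b ran opposite to Atp6v0a1, and other pump genes had smaller changes or none that held on both scales. Atp6v1e1, a subunit of the peripheral stalk, had 325.2, 324.6 and 302.8 TPM in LPS_NZM, 481.9, 485.5 and 468.2 TPM in LPS, and 281.6, 245.4 and 257.0 TPM in Control. Atp6v1e1 rose by 0.87 ± 0.049 in LPS against Control (adjusted p = 7.94e-08; 1.42 after centring) and fell by 0.59 ± 0.049 in LPS_NZM against LPS (adjusted p = 1.59e-06; 1.05 after centring). Atp6v0b, a subunit of the proton-binding ring, had 437.5, 415.9 and 442.7 TPM in LPS_NZM, 477.6, 458.9 and 464.5 TPM in LPS, and 410.3, 402.7 and 418.5 TPM in Control. Atp6v0b was 0.19 ± 0.031 higher in LPS than in Control (adjusted p = 0.000261; 0.73 after centring), but 0.09 lower after quantile normalization (log2 change -0.09). Atp6v0c, which forms most of the ring, averaged 1168 ± 14.1 TPM in LPS_NZM, 770.7 ± 18.6 TPM in LPS and 755.0 ± 9.90 TPM in Control. Atp6v0c rose by 0.60 ± 0.024 in LPS_NZM against LPS (adjusted p = 6.74e-09; 0.14 after centring), and the genome holds 2 named pseudogenes of it that could take reads. Atp6v0d1, the subunit that links ring and stalk, averaged 191.1 ± 5.44 TPM in LPS_NZM, 147.6 ± 2.62 TPM in LPS and 167.2 ± 5.08 TPM in Control. Its LPS change of -0.18 turned to 0.37 after centring, and its LPS_NZM change against LPS of 0.37 came to -0.09 (adjusted p = 0.06). The other 6 pump genes, Atp6v0e, Atp6v1d, Atp6v1f, Atp6v1g1, Atp6ap1 and Atp6ap2, were between 0.15 and 0.52 lower in LPS than in Control as deposited (log2 changes of -0.15 for Atp6v1d to -0.52 for Atp6ap1). None of these 6 stayed lower after centring, where their changes ran from 0.03 for Atp6ap1 to 0.40 for Atp6v1d. Atp6v1h, the regulatory subunit, averaged 149.9 ± 3.03 TPM in LPS_NZM, 132.0 ± 1.71 TPM in LPS and 134.7 ± 1.59 TPM in Control, and was 0.15 ± 0.028 higher in LPS_NZM than in Control (adjusted p = 0.00133; 0.24 after centring).

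**Figure D2:**
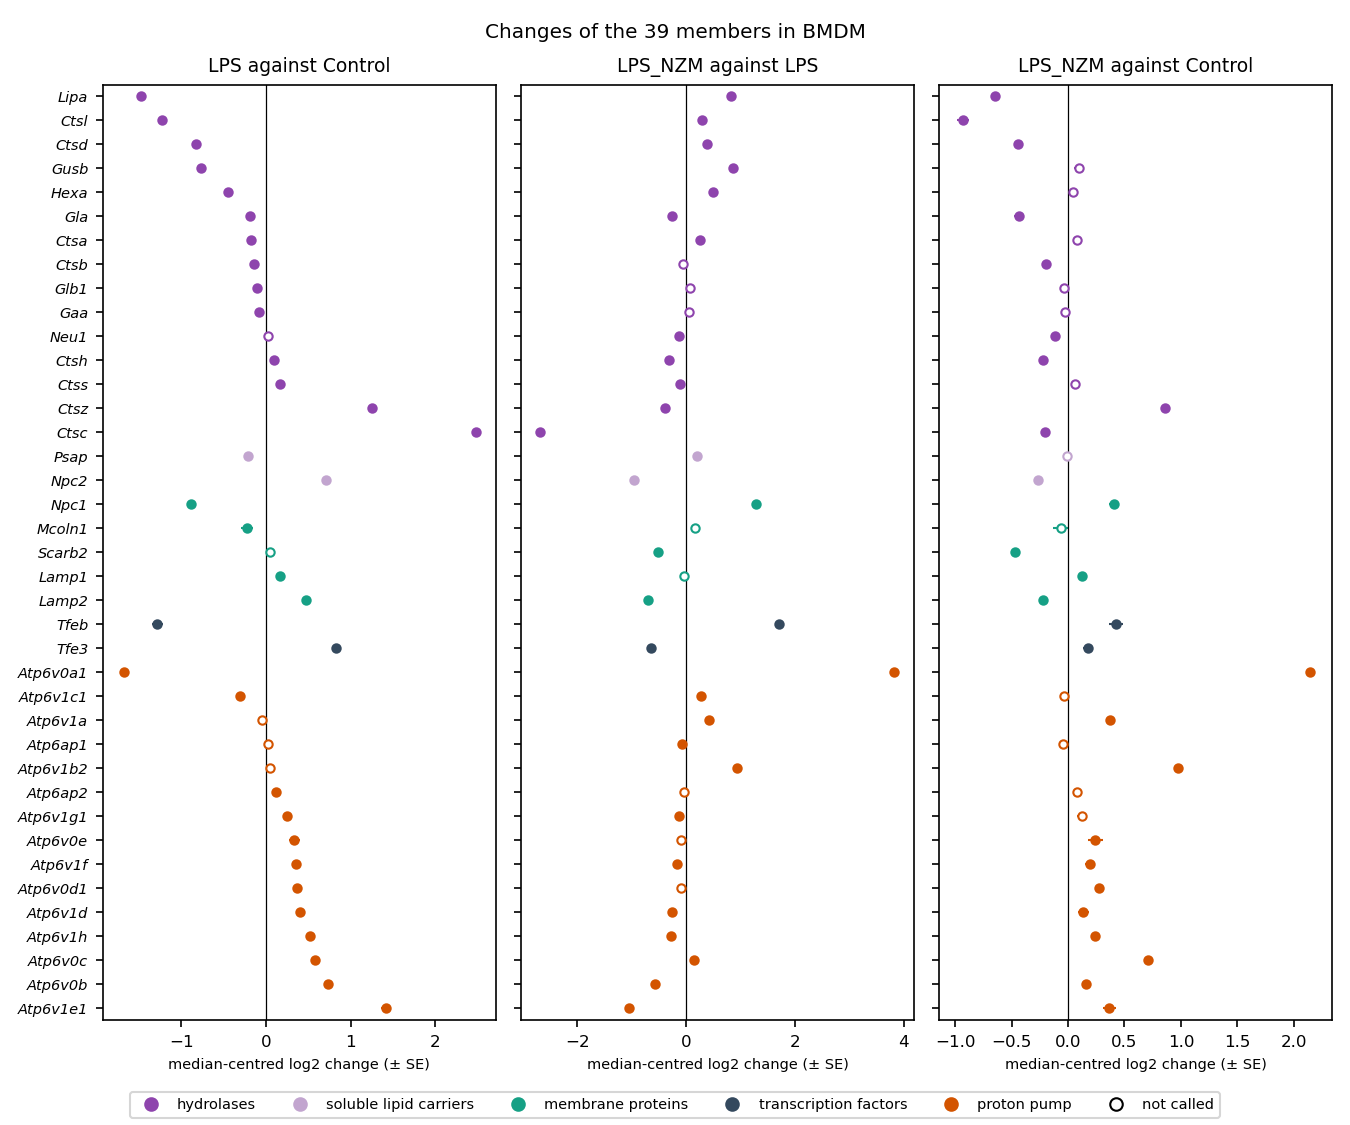
Median-centred log2 change with its standard error of the 39 genes in the 3 BMDM comparisons, coloured by role, with open circles where the adjusted p did not pass. Atp6v0a1 reaches 3.82 in LPS_NZM against LPS and Ctsc lies at -2.68, while as deposited the same changes are 4.29 and -2.22.

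LPS_NZM against Control asked what differed from vehicle after both agents. Among the 39 genes, hydrolases and pump genes lay on different sides in this comparison. Of the 15 hydrolases 10 were lower and 1, Ctsz, higher in LPS_NZM, and after centring 8 were lower and 1 higher. Of the 15 pump genes 8 were higher and 2 lower, and after centring 11 were higher and 0 lower, with 4 not called. Genes listed apart from the 39 showed less of this split. Of 35 tested genes listed as other hydrolases, 7 were higher and 10 lower after centring, with a median change of 0.010. Of 5 other pump subunits tested, 2 were higher and 0 lower after centring, with a median of 0.025. The centred median of all tested genes was 0.011. For 10 of the 15 pump genes the LPS_NZM mean as deposited was above both other BMDM means, and the share over all genes was not computed. Of these 10, only Atp6v0a1, Atp6v0c, Atp6v1a and Atp6v1b2 were called higher than both LPS and Control on both scales. Over all 39 genes 11 were higher and 15 lower, against 18.6% and 29.1% of all tested genes, and after centring 16 were higher and 11 lower, against 24.9% and 22.0%. Of 10 macrophage markers 7 were lower and 2 higher in this comparison, and of 10 neutrophil markers 6 were higher and 0 lower, and their part in the lysosomal results was not tested. The median change of all tested genes was -0.07, so both scales nearly met here. Besides Atp6v0a1 and Atp6v1b2, Atp6v0c was higher by 0.63 ± 0.024 (adjusted p = 2.57e-08; 0.71 after centring). Lipa fell by 0.73 ± 0.032 (adjusted p = 6.34e-08; 0.65 after centring) and Ctsd by 0.53 ± 0.022 (adjusted p = 4.88e-08; 0.45 after centring). Gla, which removes terminal galactose from glycolipids, had 58.8, 56.1 and 58.4 TPM in LPS_NZM and 79.7, 85.3 and 84.5 TPM in Control, and fell by 0.52 ± 0.045 (adjusted p = 1.01e-05; 0.44 after centring).

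The mean log2(TPM + 1) of the 15 hydrolases minus that of the 15 pump genes is left unchanged by centring a library. It was 0.60, 0.61 and 0.60 in LPS_NZM, 0.83, 0.83 and 0.85 in LPS, and 1.11, 1.15 and 1.16 in Control. In BMSC it was -1.001, -1.01 and -1.05 in Aged_NZM, and -1.33, -1.37 and -1.33 in Aged. No pair of groups overlapped. The difference was -0.30 in LPS against Control, -0.24 in LPS_NZM against LPS and -0.54 in LPS_NZM against Control. It was 0.33 in Aged_NZM against Aged. In LPS_NZM against LPS the pump mean includes Atp6v0a1, which alone changed by 4.29, and a score without it was not computed. The median change in that comparison had the opposite order, at 0.52 over the hydrolases and 0.37 over the pump genes. Without Ctsc and Ctss, left out after their values were seen, the difference came to -0.52 in LPS against Control and -0.03 in LPS_NZM against LPS. In Aged against Control it was -2.49 with these 2 genes and -1.35 without them. Both were at no more than 0.49 TPM in any BMSC library, which lowers the BMSC scores. With the median over genes in place of the mean, the difference in Aged_NZM against Aged changed sign to -0.19. No test was made of this score, because the members were chosen with results of these data known.

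**Figure D3:**
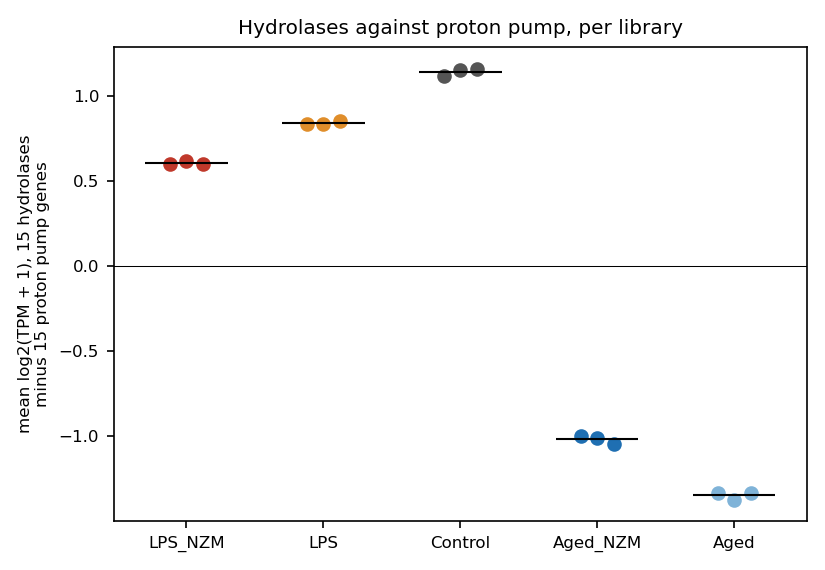
Mean log2(TPM + 1) of the 15 hydrolases minus that of the 15 pump genes in each library (points) with the group mean (bar). The BMDM groups lie at 0.60, 0.84 and 1.14 in LPS_NZM, LPS and Control, and the BMSC groups at -1.02 in Aged_NZM and -1.35 in Aged. The hydrolases include Ctsc and Ctss, at no more than 0.49 TPM in any BMSC library.

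Several pump positions have more than 1 gene, and for subunit a the balance of genes shifted between groups. Atp6v0a1 made up 65.3% ± 0.06 of the summed subunit a level in LPS_NZM, 5.29% ± 0.20 in LPS and 31.3% ± 1.5 in Control (SD, n = 3). Tcirg1, the form known from osteoclasts and macrophage lysosomes, made up 31.6% ± 0.23 in LPS_NZM, 90.2% ± 0.39 in LPS and 62.1% ± 1.7 in Control. The sum of the 4 genes was 1127 ± 3.69 TPM in LPS_NZM, 694.7 ± 14.0 TPM in LPS and 562.1 ± 1.39 TPM in Control. Tcirg1 itself had 356.7, 359.0 and 352.1 TPM in LPS_NZM, 613.9, 624.3 and 640.5 TPM in LPS, and 357.1, 337.7 and 353.2 TPM in Control. Tcirg1 rose by 0.84 ± 0.028 in LPS against Control (adjusted p = 1.77e-09; 1.39 after centring) and fell by 0.81 ± 0.028 in LPS_NZM against LPS (adjusted p = 2.12e-09; 1.28 after centring), opposite to Atp6v0a1 in both. In BMSC the shares were less far apart, with Atp6v0a1 at 35.2% in Aged_NZM and 39.7% in Aged, and Atp6v0a2 at 26.0% in Aged_NZM and 27.8% in Aged.

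**Figure D4:**
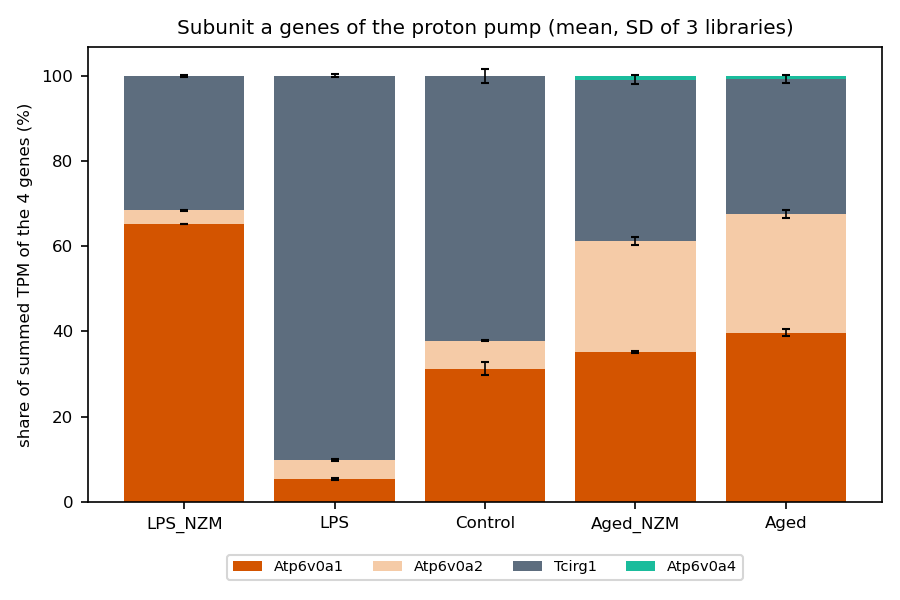
Share in percent of the 4 subunit a genes in their summed TPM, as stacked bars of group means with the SD of 3 libraries. Atp6v0a1 takes 65.3% in LPS_NZM, 5.29% in LPS and 31.3% in Control, and Tcirg1 takes 31.6%, 90.2% and 62.1% in the same groups.

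For subunit d, Atp6v0d2, a form best known from osteoclasts, had 83.4, 87.2 and 93.4 TPM in LPS_NZM, 26.9, 23.3 and 23.6 TPM in LPS, and 40.8, 44.3 and 47.2 TPM in Control. Its share of subunit d was 31.5% in LPS_NZM, 14.3% in LPS and 20.9% in Control, and it was under 0.50 TPM in every BMSC library. Atp6v0d2 rose by 1.80 ± 0.071 in LPS_NZM against LPS (adjusted p = 5.58e-09; 1.33 after centring). Of 7 tested osteoclast markers 3 were higher and 2 lower in LPS_NZM against LPS, beside 60.4% and 16.9% of all tested genes. After centring 0 were higher and 4 lower, beside 29.8% and 35.3%. The marker sums were 713.1 to 728.5 TPM in LPS_NZM, 883.4 to 910.0 TPM in LPS and 661.8 to 679.3 TPM in Control. Of the 8 osteoclast markers listed, at most 2 were under 1 TPM in any BMDM library. Calcr averaged under 1 TPM in all 5 groups, while Acp5 averaged 333.8 TPM and Ctsk 160.5 TPM in Control. The part of osteoclasts in these results was not tested. Atp6v0e2 held 7.89% of subunit e in Aged_NZM and 10.1% in Aged, and at most 0.74% in a BMDM group. Among the MiT factors, Tfec had 166.9, 168.3 and 173.6 TPM in LPS_NZM, 146.3, 139.6 and 133.9 TPM in LPS, and 20.2, 17.6 and 20.9 TPM in Control, and was listed at 0 in every BMSC library. Tfeb made up 10.5% of the summed MiT factor level in LPS_NZM, 2.54% in LPS and 16.04% in Control.

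Aged_NZM against Aged asked what NZM did in BMSC. Here every called pump gene was lower as deposited, 12 of 15, and after centring 9 were lower and 3 higher. The 13 hydrolases tested split evenly, with 6 higher and 6 lower, and after centring 7 were higher and 4 lower. Over the 37 genes tested 9 were higher and 23 lower, against 21.6% and 48.9% of 13865 tested genes, and the median change was -0.20 over the 37 and -0.18 over all tested genes. After centring 14 were higher and 15 lower, against 31.1% and 35.4%. Ctsc and Ctss, at no more than 0.49 TPM in any BMSC library, were not tested. The stromal marker list moved with this comparison: 8 of 9 tested markers were higher in Aged_NZM, with sums of 5522 to 5541 TPM in Aged_NZM and 2467 to 2551 TPM in Aged. Lepr averaged under 1 TPM in both groups, and the part of cell composition in the lysosomal results was not tested.

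Gla had the strongest change among the hydrolases, with 56.2, 61.0 and 59.6 TPM in Aged_NZM, against 124.4, 120.0 and 122.8 TPM in Aged. Gla fell by 1.04 ± 0.041 (adjusted p = 3.13e-08; 0.88 after centring). Gusb fell by 0.39 ± 0.057 (adjusted p = 0.000198; 0.23 after centring), with 43.1, 44.8 and 40.9 TPM in Aged_NZM and 60.3, 52.9 and 56.0 TPM in Aged. Neu1, a sialidase, had 26.8, 25.3 and 28.2 TPM in Aged_NZM and 35.5, 33.2 and 35.6 TPM in Aged, and fell by 0.37 ± 0.054 (adjusted p = 0.000206; 0.21 after centring). Lipa moved up, with 72.7, 70.5 and 74.3 TPM in Aged_NZM and 52.2, 51.0 and 50.3 TPM in Aged. Lipa rose by 0.50 ± 0.039 (adjusted p = 2.72e-06; 0.66 after centring). Ctsb rose by 0.31 ± 0.031 (adjusted p = 1.76e-05; 0.47 after centring), at 841.2 ± 12.3 TPM in Aged_NZM and 680.2 ± 12.9 TPM in Aged, while Ctsd fell by 0.27 ± 0.037 (adjusted p = 0.000136; 0.11 after centring). Glb1, the galactosidase whose activity is stained as a sign of senescence, was 0.20 higher in Aged_NZM as deposited and 0.36 higher after centring.

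Npc1 had 17.3, 17.3 and 15.8 TPM in Aged_NZM, against 26.6, 24.1 and 24.6 TPM in Aged, and fell by 0.55 ± 0.060 (adjusted p = 2.6e-05; 0.39 after centring). Tfeb had 6.90, 5.26 and 4.93 TPM in Aged_NZM and 3.70, 4.16 and 3.60 TPM in Aged, a low level at which it rose by 0.46 ± 0.12 (adjusted p = 0.00597; 0.62 after centring). Tfe3 had 61.1, 56.2 and 54.6 TPM in Aged_NZM and 78.4, 74.2 and 75.7 TPM in Aged, and fell by 0.40 ± 0.049 (adjusted p = 5.53e-05; 0.25 after centring). The 2 factors thus changed in opposite directions in BMSC. Lamp2 had 661.3, 693.7 and 711.0 TPM in Aged_NZM and 562.7, 541.8 and 547.7 TPM in Aged, and rose by 0.32 ± 0.037 (adjusted p = 3.54e-05; 0.48 after centring). Lamp1 differed by -0.05 as deposited (adjusted p = 0.233) and by 0.11 after centring.

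The 4 pump genes that fell most in BMSC were Atp6v1g1, Atp6v1c1, Atp6v1h and Atp6v0b. Atp6v1g1, a subunit of the peripheral stalk, had 203.8, 204.7 and 215.1 TPM in Aged_NZM, against 424.7, 441.1 and 440.0 TPM in Aged. Atp6v1g1 fell by 1.06 ± 0.035 (adjusted p = 1.22e-08; 0.90 after centring). Atp6v1c1 had 95.7, 102.4 and 103.5 TPM in Aged_NZM, against 175.8, 174.4 and 176.4 TPM in Aged, and fell by 0.80 ± 0.039 (adjusted p = 1.17e-07; 0.64 after centring). Atp6v1h had 48.5, 52.0 and 56.4 TPM in Aged_NZM, against 88.2, 86.6 and 87.7 TPM in Aged, and fell by 0.73 ± 0.053 (adjusted p = 1.63e-06; 0.58 after centring). Atp6v0b had 95.5, 95.5 and 95.3 TPM in Aged_NZM, against 157.4, 146.3 and 148.8 TPM in Aged, and fell by 0.65 ± 0.038 (adjusted p = 3.38e-07; 0.50 after centring). These 4 were picked by the size of their change, and none overlapped between the groups, which held for 31 of the 37 genes tested. The share over all tested genes was not computed. Atp6v1a did not pass as deposited, with a change of -0.01 (adjusted p = 0.889), and was 0.15 higher after centring. Atp6v0d1 differed by -0.12 as deposited (adjusted p = 0.0307) and by 0.04 after centring.

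A test of the difference itself set NZM in BMSC after H2HO against NZM in BMDM after LPS. Cell kind and pretreatment cannot be told apart in it. The NZM change was lower in BMSC than in BMDM for 34 of the 39 genes and higher for 4, against 54.8% and 17.2% of 16696 tested genes, and after centring it was lower for 16 and higher for 17, against 28.7% and 39.9%. For 16 genes it was lower on both scales and for 4 higher on both, with no such share computed over all tested genes. These counts include Ctsc (2.07, higher) and Ctss (-0.26 as deposited, but 0.36 after centring), which were at no more than 0.49 TPM in any BMSC library, so that their values restate the change in BMDM. Atp6v0a1 had the largest difference, -4.83 ± 0.064 (adjusted p = 7.45e-16; -4.21 after centring), since it rose with NZM in BMDM and fell by 0.54 ± 0.053 with NZM in BMSC (adjusted p = 1.21e-05), with 43.0, 41.9 and 40.5 TPM in Aged_NZM and 65.7, 57.7 and 60.9 TPM in Aged. Npc1 differed by -2.31 ± 0.069 (adjusted p = 1.04e-12; -1.68 after centring), Atp6v1b2 by -1.74 ± 0.038 (adjusted p = 6.14e-14; -1.12 after centring) and Gusb by -1.71 ± 0.065 (adjusted p = 1.33e-11; -1.09 after centring). Each of these 3 rose in BMDM and fell in BMSC with NZM on both scales. Tfeb also differed, by -1.71 ± 0.13 (adjusted p = 1.82e-08; -1.08 after centring), but rose in both cell kinds. Lamp2 and Npc2 fell in BMDM and rose in BMSC, with differences of 0.55 ± 0.045 (adjusted p = 4.8e-08; 1.18 after centring) and 0.65 ± 0.037 (adjusted p = 9.72e-10; 1.27 after centring).

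**Figure D5:**
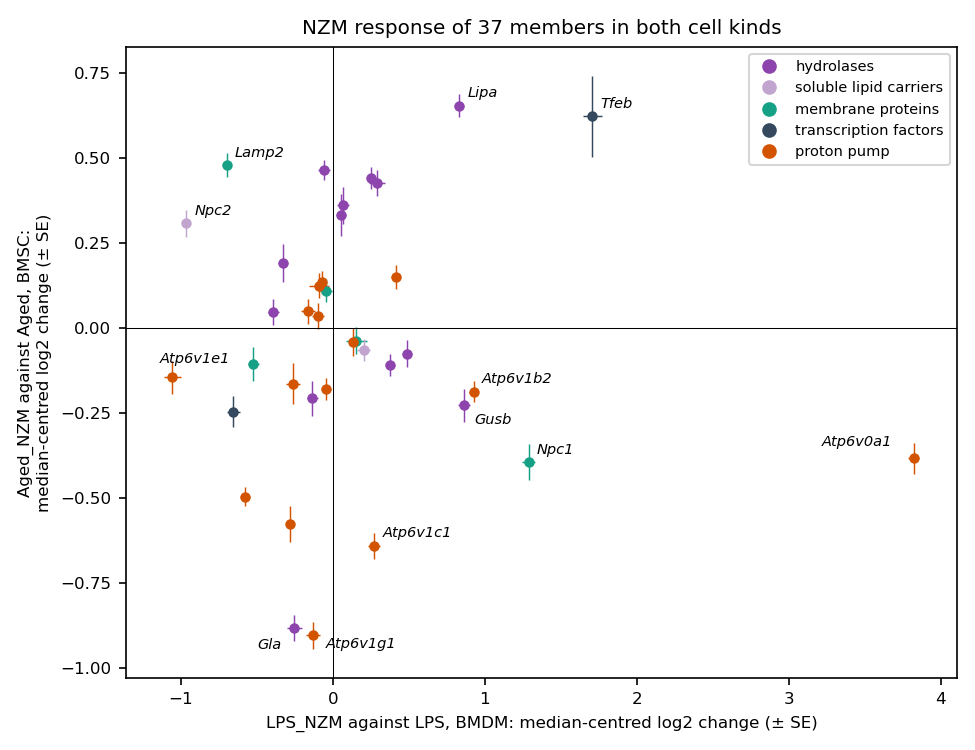
Median-centred log2 change with NZM of the 37 genes tested in both cell kinds, LPS_NZM against LPS in BMDM on the horizontal axis and Aged_NZM against Aged in BMSC on the vertical axis, with standard errors. Atp6v0a1, Npc1, Atp6v1b2 and Gusb lie to the right and below 0, Lipa and Tfeb lie right and above 0, and Lamp2 and Npc2 lie left and above 0.

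Most of the lysosomal set was lower in BMSC than in BMDM, though cell kind, treatment and culture cannot be told apart between Aged and Control. Of the 39 genes 30 were lower and 6 higher in Aged than in Control, against 35.2% and 53.6% of 16696 tested genes, and after centring 32 were lower and 5 higher, against 39.3% and 49.1%. The median change was -1.24 over the 39 and 0.31 over all tested genes. In 28 of the 39 genes both BMSC means lay below all 3 BMDM means, and in 4 (Gaa, Lamp2, Mcoln1 and Atp6v1f) both lay above. The shares of all tested genes with these orders were not computed, so these 2 counts have no background beside them. Ctss, which trims the invariant chain in antigen-presenting cells, had 0.0, 0.0 and 0.08 TPM in Aged, against 3853, 3694 and 3827 TPM in Control. Ctsc had 0.49, 0.17 and 0.25 TPM in Aged, against 637.4 TPM or more in Control. Lipa averaged 51.1 ± 0.97 TPM in Aged and 1307 ± 60.1 TPM in Control, a change of -4.65 ± 0.032 (adjusted p = 1.88e-20; -4.79 after centring). Ctsh, an aminopeptidase, had 20.7, 22.5 and 22.3 TPM in Aged, against 296.8, 298.0 and 298.3 TPM in Control. Pump genes differed less as a class, with a median change of -0.36 against -2.52 for the hydrolases, and Atp6v1f rose by 1.31 as deposited and by 1.17 after centring. Its levels were 370.7, 385.0 and 379.5 TPM in Aged and 163.2, 149.5 and 143.7 TPM in Control. Gaa, which degrades glycogen, had 159.3, 136.5 and 142.5 TPM in Aged, against 79.0, 79.8 and 80.7 TPM in Control, and was 0.86 higher (0.72 after centring).

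Other lysosomal hydrolases were listed apart from the 39. The list also holds Hgsnat, an acetyltransferase, and Gm2a, an activator protein, which are not hydrolases but are in its counts. Of 35 tested in BMDM, 31 were lower and 3 higher in LPS against Control, beside 65.6% and 15.2% of all tested genes, and after centring 19 were lower and 5 higher, beside 29.1% and 36.5%. Sgsh, a heparan sulfatase, averaged 2.91 TPM in LPS and 25.0 TPM in Control, a change of -2.74 ± 0.080 (adjusted p = 5.86e-10; -2.19 after centring). Pla2g15, a lysosomal phospholipase, had 263.6, 254.4 and 268.0 TPM in LPS_NZM, 21.2, 17.2 and 20.8 TPM in LPS, and 93.8, 102.3 and 96.6 TPM in Control. Pla2g15 rose by 3.67 ± 0.070 in LPS_NZM against LPS (adjusted p = 2.98e-11; 3.21 after centring) and lay above Control in every LPS_NZM library. In LPS_NZM against LPS 29 of these 35 genes were higher and 3 lower, beside 60.4% and 16.9% of all tested genes, and after centring 17 were higher and 7 lower, beside 29.8% and 35.3%. In Aged_NZM against Aged 23 of 34 were higher and 5 lower, beside 21.6% and 48.9% of all tested genes, and after centring 25 were higher and 5 lower, beside 31.1% and 35.4%. The median change there was 0.26 for the list and -0.18 for all tested genes. Arsa, a sulfatase of glycolipids, had 48.4, 46.2 and 44.3 TPM in Aged_NZM, against 27.4, 25.4 and 24.1 TPM in Aged, and rose by 0.83 ± 0.057 (adjusted p = 1.16e-06; 0.99 after centring). Hgsnat, which acetylates heparan sulfate, fell by 1.01 ± 0.038 in the same comparison (adjusted p = 2.57e-08; 0.85 after centring).

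Among 24 other membrane proteins tested in BMDM, 18 were lower and 5 higher in LPS against Control, and after centring 13 were lower and 8 higher, beside the same shares of all tested genes as above (65.6% lower, and 29.1% after centring). Slc15a3, a peptide transporter of endolysosomes, had 353.6, 358.5 and 357.4 TPM in LPS_NZM, 1149, 1188 and 1231 TPM in LPS, and 181.9, 182.9 and 193.6 TPM in Control, and rose by 2.67 ± 0.033 with LPS (adjusted p = 2.37e-12; 3.22 after centring). Slc17a5, which exports sialic acid, had 32.4, 36.2 and 36.6 TPM in LPS_NZM, 4.77, 4.53 and 4.09 TPM in LPS, and 26.3, 28.3 and 23.0 TPM in Control, and rose by 2.72 ± 0.085 in LPS_NZM against LPS (adjusted p = 9.57e-10; 2.26 after centring). Tpcn2, a cation channel of lysosomes, and Ctns, the cystine exporter, rose by 2.39 ± 0.040 (adjusted p = 1.36e-11; 1.93 after centring) and 2.23 ± 0.075 (adjusted p = 1.55e-09; 1.77 after centring) in the same comparison. In that comparison 17 of the 24 were higher and 5 lower, beside 60.4% and 16.9% of all tested genes, and after centring 11 were higher and 7 lower, beside 29.8% and 35.3%. In Aged_NZM against Aged 5 of 21 were higher and 10 lower, beside 21.6% and 48.9%, and after centring 8 were higher and 7 lower, beside 31.1% and 35.4%.

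Genes for delivery to the lysosome were lower with LPS in 15 of 16 cases and higher in 1, beside 65.6% and 15.2% of all tested genes, and after centring 9 were lower and 3 higher, beside 29.1% and 36.5%. In LPS_NZM against LPS 13 were higher and 2 lower, beside 60.4% and 16.9%, and after centring 9 were higher and 5 lower, beside 29.8% and 35.3%. Plekhm1, an adaptor for lysosome fusion, rose there by 1.78 ± 0.045 (adjusted p = 2.15e-10; 1.31 after centring), with 62.7, 63.2 and 63.6 TPM in LPS_NZM and 17.9, 18.2 and 17.0 TPM in LPS. Of 19 genes of nutrient signalling at the lysosome, 17 were lower and 1, Tfec, higher in LPS against Control, beside 65.6% and 15.2% of all tested genes. After centring 5 were lower and 7 higher, close to the background shares of 29.1% and 36.5%, and the list's median centred change was -0.014. Flcn, part of the complex that holds TFE3 and TFEB out of the nucleus, had 55.8, 54.3 and 55.5 TPM in LPS_NZM, 20.5, 18.0 and 20.6 TPM in LPS, and 43.9, 41.6 and 48.3 TPM in Control. In Aged_NZM against Aged 13 of 18 genes of that list were lower and 4 higher, beside 48.9% and 21.6% of all tested genes, and after centring 10 were lower and 5 higher, beside 35.4% and 31.1%. Rragd, a Rag GTPase, had 1.88, 2.12 and 1.92 TPM in Aged_NZM, against 6.83, 6.54 and 5.65 TPM in Aged, and fell by 1.301 ± 0.098 (adjusted p = 2.15e-06; 1.14 after centring).

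Only 5 of 10 cathepsin inhibitors were tested in BMDM. Cst7, a cystatin of immune cells that acts on Ctsc, had 39.4, 34.8 and 42.0 TPM in LPS_NZM, 27.9, 32.4 and 35.7 TPM in LPS, and 8.15, 13.2 and 9.15 TPM in Control. Cst7 rose by 1.58 ± 0.15 in LPS against Control (adjusted p = 4.98e-06; 2.13 after centring), as did Ctsc, and its LPS_NZM and LPS libraries overlapped. In BMSC, Serpinb1a, an inhibitor of granule proteases, had 95.3, 102.4 and 97.0 TPM in Aged_NZM, against 22.4, 23.4 and 24.9 TPM in Aged. Serpinb1a rose by 2.02 ± 0.051 (adjusted p = 2.36e-09; 2.17 after centring). Cst3, a secreted cystatin, had 1271, 1190 and 1198 TPM in Aged_NZM, against 784.5, 812.6 and 800.7 TPM in Aged, and rose by 0.61 ± 0.036 (adjusted p = 4.29e-07; 0.77 after centring).

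Changes were also set beside the promoter letters CACGTG shown by the sequences above. In LPS_NZM against LPS the 12 genes with the letters had a median centred change of 0.06 and a range of -0.58 to 0.42, and the 20 without had a median of -0.12 and a range of -2.68 to 3.82. In LPS against Control the centred medians were -0.09 with the letters, over a range of -1.22 to 0.73, and 0.15 without, over a range of -1.68 to 2.48. In Aged_NZM against Aged they were 0.12 over the 12 with the letters, with a range of -0.88 for Gla to 0.44 for Ctsa. Over 18 without the letters the centred median was -0.07, with a range of -0.38 to 0.66. Atp6v1g1 (-0.90), Atp6v1c1 (-0.64), Atp6v1h (-0.58) and Npc1 (-0.39) are in neither group, since their promoters were not present and so not searched. Atp6v0a1, Tfeb, Gusb and Lipa, with large changes in BMDM, had no CACGTG in the 300 bases searched, which says only that these letters are not in that window.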

How the data were processed

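RNA of 15 libraries was sequenced from polyadenylated RNA with a stranded kit, per the labels' protocols. The authors deposited 1 table of TPM per gene. Per the submitters' processing notes, fastp, HISAT2, StringTie, RSEM and the build GRCm39 were used; versions, annotation and use of strand are not given in the sources used here. TPM keeps no read depth, so no counting interval is given. Symbols came from GENCODE M21 (GRCm38), which matched 52072 of 56979 identifiers, and promoters from RefSeq (GRCm38.p6).

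log2(TPM + 1) was fitted over genes at 1 TPM or more in at least 3 libraries with limma 3.58.1 (lmFit, eBayes with trend, two-sided) in R 4.3.3, on 9 BMDM, 6 BMSC or all 15 libraries (Aged against Control, and NZM in BMSC minus NZM in BMDM). Benjamini-Hochberg adjustment ran over all tested genes, and calls were made at 0.05. The same fit after median centring is printed beside it. The method was also run on simulated data in which no library was shifted as a whole. That run therefore cannot show how the shift between groups seen here affects the calls. Figures used Python 3.11.15 and matplotlib 3.10.9.

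The members and lists were chosen with earlier results of these data known. Per comparison, values were given for up to 4 hydrolases, 3 other non-pump genes and 4 pump genes called the same way on both scales and averaging 5 TPM or more in the higher group, ranked by deposited change, and for up to 3 genes of each further list. Tfeb, Tfe3, Lamp1, Ctsd, Ctsb and Atp6v0d1 were reported whatever their change; further genes were added after their values were seen. The replicate number was not used as a block, since in no comparison did every same-numbered pair of libraries deviate together (correlation over 0.1). Within groups, correlations between libraries ran from 0.994 to 0.997.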

Additional observations from a re-analysis of the deposited data

Results flagged for a closer look

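For 11 genes described above the change with NZM differed between the cell kinds by the test of the difference itself (limma over all 15 libraries, NZM in BMSC minus NZM in BMDM, log2(TPM + 1) as deposited). The difference was -4.83 for Atp6v0a1, -2.31 for Npc1, -1.74 for Atp6v1b2, -1.71 for Gusb and -1.71 for Tfeb. It was -1.54 for Atp6v1c1, -1.40 for Atp6v1g1, -1.25 for Gla, -1.19 for Hexa and -0.89 for Psap. For Ctsc it was 2.07, with at most 0.49 TPM in any BMSC library, so that this value restates the fall in BMDM. These 11 were taken by a rule that required the same call on both scales, so that their sign after centring was fixed by the choice. Their number is the most that the rule names. The centred values were 2.69 for Ctsc, -0.63 for Gla, -0.56 for Hexa, -0.27 for Psap, -0.91 for Atp6v1c1 and -0.78 for Atp6v1g1, with the other 5 given above. Of the 39 genes, 12 were called in opposite directions on the 2 scales. Cell kind and pretreatment cannot be told apart in these differences.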

How the results depend on the processing

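Centring each library on its median moved the counts of the 39 genes most. It gave 18 higher and 16 lower in LPS against Control, 14 and 17 in LPS_NZM against LPS, 14 and 15 in Aged_NZM against Aged, and 17 and 16 in the difference of NZM between cell kinds. Single genes turned under it as well. In LPS against Control, Lamp1 came to 0.17 and Atp6v0d1 to 0.37. In LPS_NZM against LPS, Lamp1 came to -0.044, Ctsb to -0.057 and Atp6v0d1 to -0.094. In Aged_NZM against Aged, Lamp1 came to 0.11 and Atp6v0d1 to 0.037. In the difference between cell kinds, Tfe3 came to 0.41, Lamp1 to 0.15, Ctsb to 0.52 and Atp6v0d1 to 0.13. Quantile normalization turned Atp6v0b to -0.087 in LPS against Control, Atp6v0d1 to 0.024 in Aged_NZM against Aged and Tfe3 to 0.037 in the difference between cell kinds. The cause was not tested.

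Leaving out 1 library at a time gave 6 higher and 30 to 31 lower in LPS against Control, 31 to 32 and 6 in LPS_NZM against LPS, 10 to 12 and 13 to 16 in LPS_NZM against Control, and 8 to 9 and 20 to 23 in Aged_NZM against Aged. It gave 6 and 30 in Aged against Control, and 4 and 33 to 34 in the difference between cell kinds. No called gene changed sign. The calls lost in at least 1 of these fits were Lamp2 in LPS against Control, Ctsz in LPS_NZM against LPS, Gaa, Glb1, Atp6v0e and Atp6v1c1 in LPS_NZM against Control, Gaa, Ctsz, Atp6v0d1 and Atp6v1f in Aged_NZM against Aged, and Ctsb in the difference.

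Hydrolases minus pump ran from -0.31 to -0.29 in LPS against Control, -0.24 to -0.23 in LPS_NZM against LPS, -0.55 to -0.53 in LPS_NZM against Control, 0.31 to 0.34 in Aged_NZM against Aged and -2.50 to -2.47 in Aged against Control when 1 library was left out. In the same order it was -0.64, -0.069, -0.71, -0.19 and -1.74 with the median over genes, and -0.32, -0.27, -0.59, 0.36 and -2.51 without Atp6ap1 and Atp6ap2. Without Ctsc and Ctss, chosen after seeing the data, it was -0.52 in LPS against Control, -0.029 in LPS_NZM against LPS and -1.35 in Aged against Control. A pseudocount of 0.1 gave -2.82 in Aged against Control.

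With the replicate number as a block, 16 genes were lower in LPS_NZM against Control, against 15 without it, and 33 in the difference between cell kinds, against 34; the other counts of the 39 genes were equal. Same-numbered libraries had correlations of deviations from -0.072 to 0.186 over all comparisons. In LPS_NZM against Control they were 0.145, 0.020 and 0.186, against at most 0.042 for differently numbered pairs, a hint from the data that numbers 1 and 3 may be shared there; the labels give no pairing. TPM without counts sets no limit from depth, and 3 libraries per group limit the precision.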
